A study of Homo sapiens with 6 samples.

Results

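The fibrinogen chain genes FGA, FGB and FGG encode the Aα, Bβ and γ chains of fibrinogen, the soluble plasma protein from which blood clots are built. They were followed across 6 expression arrays of A549, a human lung adenocarcinoma cell line. Every probe set that the array annotation assigned to 1 of these genes alone was taken. That gave 3 of 19775 genes, and 6 of 54675 probe sets: 3 for FGA, 2 for FGB and 1 for FGG. The genes were selected on their measured DOX changes in these same arrays, so their levels and changes are a description, and no test was made on them.

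The arrays came from 3 stable A549 lines made with a lentiviral system. Each line carried a tetracycline-inducible short hairpin RNA, non-targeting in shNTC and directed at CNOT3 in shCNOT3-1 and shCNOT3-2, which use different target sequences. CNOT3 belongs to CCR4-NOT, the complex that removes poly(A) tails from mRNA. Each line was grown for 72 hours without doxycycline (DOX) or with DOX at 1 ug/ml, which switches the hairpin on, and 1 array was made per line and DOX state. All 6 arrays therefore share the parental cell line and an integrated inducible hairpin. Whether a line was 1 clone or a pool is not given in the sources used here. DOX reached the shNTC line as well, so the shNTC change is given beside those of the 2 hairpins (n = 2). It was not subtracted in the tests below. With 1 array per state, the only replication is that between hairpins, which may include differences between the lines themselves.

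Fibrinogen is a hexamer of 2 copies of each chain, put together and linked by disulfide bonds in the endoplasmic reticulum before secretion. Thrombin cuts short peptides from the Aα and Bβ chains, the remaining monomers polymerise to fibrin, factor XIII crosslinks the polymer, and plasmin dissolves it. Hepatocytes are the main source, and the 3 genes lie side by side and are induced together in the acute phase response by interleukin 6 (IL6) with glucocorticoid. Lung epithelial cells, A549 among them, can also make fibrinogen under such stimulation.

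The proximal promoters are shown because the acute phase elements known from these genes are short sequences just upstream of the start. The sequences are the 250 bases before the annotated start, 5′ to 3′ on the strand of the gene, from RefSeq on GRCh38.p14. All 3 genes were matched by symbol, and for FGB, which has 2 entries, the one at the gene's own start was used. FGA was read from chr4:154590743-154590992 on the minus strand, FGB from chr4:154562730-154562979 on the plus strand, and FGG from chr4:154612657-154612906 on the minus strand. Capitals mark matches to 3 motifs searched on both strands: CTGGGA, the core of the IL6 response element; TTGCNNAA, a form of the C/EBP site; and TTCNNNGAA, a form of the STAT site.
FGA: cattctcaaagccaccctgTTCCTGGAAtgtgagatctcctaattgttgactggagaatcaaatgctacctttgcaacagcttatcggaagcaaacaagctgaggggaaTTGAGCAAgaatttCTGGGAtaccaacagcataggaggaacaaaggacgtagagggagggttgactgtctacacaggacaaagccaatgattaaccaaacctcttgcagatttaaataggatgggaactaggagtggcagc
FGB: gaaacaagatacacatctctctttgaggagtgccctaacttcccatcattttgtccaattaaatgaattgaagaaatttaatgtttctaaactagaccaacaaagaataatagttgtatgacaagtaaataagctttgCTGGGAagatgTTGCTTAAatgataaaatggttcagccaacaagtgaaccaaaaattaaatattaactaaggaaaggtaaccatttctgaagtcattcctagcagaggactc
FGG: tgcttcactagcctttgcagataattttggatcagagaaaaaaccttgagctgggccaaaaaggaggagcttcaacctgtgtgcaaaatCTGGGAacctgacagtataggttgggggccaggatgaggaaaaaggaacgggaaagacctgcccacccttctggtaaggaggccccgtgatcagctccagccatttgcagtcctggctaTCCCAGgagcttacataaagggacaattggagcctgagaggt
CTGGGA was found in all 3 windows. It lay 127 to 122 bases before the start in FGA, 112 to 107 in FGB and 161 to 156 in FGG, on the strand of the gene. FGG held a second copy on the opposite strand, 42 to 37 bases before the start. Of 35116 promoter windows of the same length, 28.7% held this motif. TTGCNNAA was present in FGA on the opposite strand, 141 to 134 bases before the start, and in FGB on the strand of the gene, 101 to 94 bases before it, against 9.05% of all windows. TTCNNNGAA was present in FGA alone, 231 to 223 bases before the start, against 6.57% of windows. No match overlapped another. The FGB window was 66.8% A or T, that of FGA 54.8% and that of FGG 49.2%. A match says only that the letters are in the window, and no binding was measured here.

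The deposited values are probe set intensities on a linear scale, and a gene is represented below by its brightest probe set. Changes are differences of log2(intensity + 1), with DOX minus without DOX, so a value of 1 is close to a doubling. Where 3 changes follow one another, they are those of shNTC, shCNOT3-1 and shCNOT3-2, in that order. A gene was tested where its mean log2 intensity reached the median over the whole array (intensity 61.4), which 12630 genes did, among them all 3 chains. Intensities of different probe sets cannot be set against each other, because probe sets differ in their response.

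CNOT3 itself, the targeted gene, went from 178 without to 166 with DOX in shNTC, from 227 to 81.9 in shCNOT3-1 and from 228 to 46.9 in shCNOT3-2. Its mean change in the shCNOT3 lines was -1.86 ± 0.57 (SD, n = 2; adjusted p = 0.0677 in limma), which missed the threshold of 0.05, and another CNOT3 probe set was also lower in shNTC (-1.43). All 5 epithelial markers (EPCAM, KRT8, KRT18, KRT19 and CDH1) were above the filter, with a summed intensity of 83291 to 95299 per array. Of 6 hepatocyte markers only AHSG was. The list's sum went from 236 to 348 with DOX in shNTC, from 295 to 347 in shCNOT3-1 and from 176 to 233 in shCNOT3-2. That sum was higher with DOX in every line but includes dim signal, and its members differed. AHSG and CYP2E1 were higher with DOX in every line, APOA1 and APOC3 lower in every line, and ALB and TAT mixed. Albumin, the defining hepatocyte product, lay under the filter level on all 6 arrays (3.68 to 30.4), and no marker was at the lowest value on every array. None of 4 leukocyte markers, 1 of 4 endothelial, 2 of 5 megakaryocyte and 2 of 5 fibroblast markers were above the filter. For ACTB, signal at the 3' end divided by signal at the 5' end, a reading of RNA integrity, went from 1.58 to 1.47 with DOX in shNTC, from 1.33 to 1.42 in shCNOT3-1 and from 1.36 to 1.45 in shCNOT3-2, and so moved opposite ways in shNTC and the shCNOT3 lines, as the fibrinogen chains did. For GAPDH the same measure went from 0.980 to 0.966, from 0.980 to 1.03 and from 1.09 to 1.05, without that pattern. Their part in the chain values was not tested.

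The fibrinogen chains were higher with DOX in the control line and lower with DOX in both CNOT3 hairpin lines. FGB, the Bβ chain, went from 1178 without to 3411 with DOX in shNTC, from 641 to 261 in shCNOT3-1 and from 713 to 180.3 in shCNOT3-2. The shNTC array with DOX was thus the highest and the shCNOT3-2 array with DOX the lowest, 18.9-fold apart. Its log2 change was 1.53 in shNTC (2.90-fold higher with DOX), -1.29 in shCNOT3-1 (2.46-fold lower) and -1.98 in shCNOT3-2 (3.95-fold lower), a shCNOT3 mean of -1.64 ± 0.48 (SD, n = 2). In cultured cells measured in bulk, fewer expressing cells and less RNA per cell cannot be told apart.

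FGG, the γ chain, which carries a binding site for platelet integrin, went from 1013 without to 2246 with DOX in shNTC, from 589 to 261 in shCNOT3-1 and from 692 to 149.7 in shCNOT3-2. The arrays stood in the same order as for FGB, over a 15.0-fold range. The change was 1.15 in shNTC (2.22-fold higher), -1.17 in shCNOT3-1 (2.26-fold lower) and -2.20 in shCNOT3-2 (4.62-fold lower). The shCNOT3 mean was -1.69 ± 0.73 (SD, n = 2).

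FGA, the Aα chain, whose long flexible end is a main site of fibrin crosslinking, went from 1175 without to 3726 with DOX in shNTC, from 957 to 573 in shCNOT3-1 and from 961 to 227 in shCNOT3-2. Both shCNOT3 arrays without DOX read alike, and the shCNOT3-2 array with DOX was the lowest. The change was 1.66 in shNTC (3.17-fold higher), -0.74 in shCNOT3-1 (1.67-fold lower) and -2.08 in shCNOT3-2 (4.23-fold lower), with a shCNOT3 mean of -1.41 ± 0.95 (SD, n = 2).

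**Figure D1:**
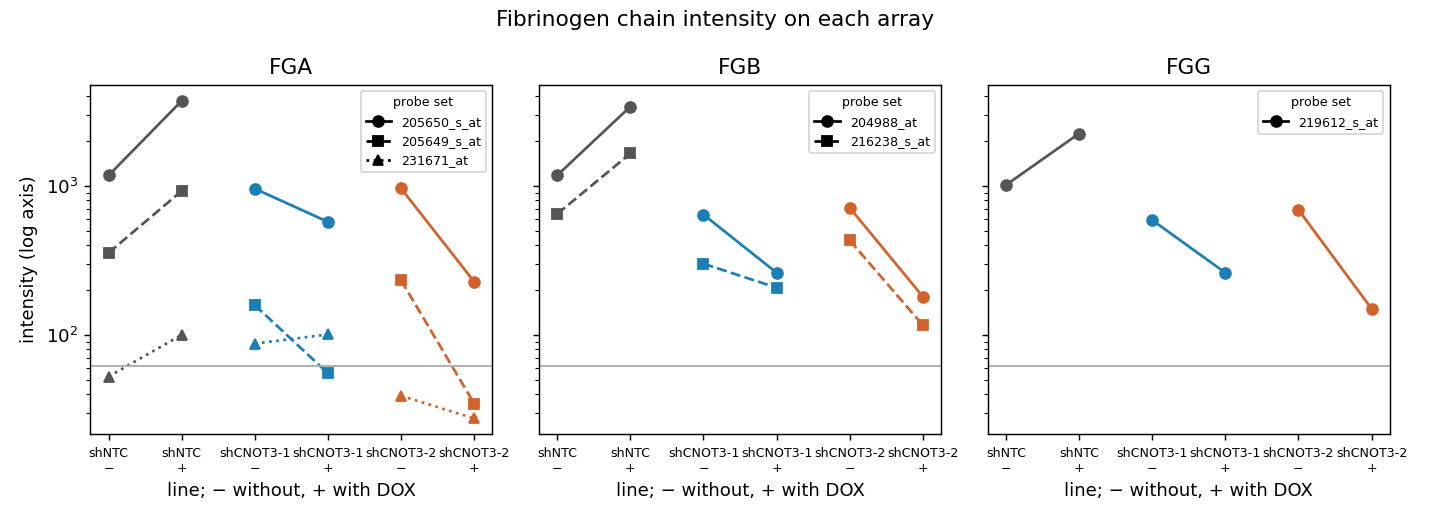
Intensity of every fibrinogen probe set (log axis) on each of the 6 arrays, without (−) and with (+) DOX; each point is 1 array, lines join the 2 arrays of a stable line, colours mark the line, and the grey line is the filter level of 61.4. All 5 probe sets above the filter were higher with DOX in shNTC and lower with DOX in both shCNOT3 lines, while the dim FGA probe set (dotted) stayed between 27.4 and 100.5.

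The remaining probe sets differed in size but not in order, apart from the dim one. The second FGA probe set went from 355 without to 925 with DOX in shNTC, from 158 to 55.1 in shCNOT3-1 and from 232 to 34.5 in shCNOT3-2, so both shCNOT3 arrays with DOX lay under the filter level. Its changes were 1.38, -1.50 and -2.72. The second FGB probe set read 648 and 1650.2, 300.1 and 207, and 430.3 and 116 in the same order of arrays, with changes of 1.35, -0.53 and -1.88. All 5 probe sets that passed the filter ordered the arrays alike: shNTC with DOX, shNTC without, shCNOT3-2 without, shCNOT3-1 without, shCNOT3-1 with and shCNOT3-2 with DOX. The third FGA probe set, just under the filter with a mean log2 intensity of 5.94, went from 52.4 to 99.9 in shNTC, from 87.2 to 100.5 in shCNOT3-1 and from 38.9 to 27.4 in shCNOT3-2. Its changes of 0.92, 0.20 and -0.49 did not follow that order, and its shCNOT3 mean was -0.14 ± 0.49 (SD, n = 2).

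The lines also differed before the hairpin was switched on. Without DOX, shNTC exceeded shCNOT3-1 by 1.84-fold and shCNOT3-2 by 1.65-fold for FGB, by 1.72-fold and 1.46-fold for FGG, and by 1.23-fold and 1.22-fold for FGA, all with the brightest probe sets. The second FGA probe set gave larger gaps, 2.25-fold and 1.53-fold, and the second FGB probe set gave 2.16-fold and 1.51-fold. The shCNOT3 lines without DOX, neighbours in this order, read 641 and 713 for FGB, 589 and 692 for FGG, and 957 and 961 for FGA with the brightest probe sets. With the other probe sets above the filter they lay further apart, at 158 and 232 for FGA and 300.1 and 430.3 for FGB. With DOX the gap to shNTC was 13.1-fold and 18.9-fold for FGB, 8.6-fold and 15.0-fold for FGG, and 6.5-fold and 16.4-fold for FGA. Part of each gap with DOX was therefore present without it, and part came from the higher shNTC level with DOX. With 1 array per state, the spread between cultures of a line is unknown.

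The 3 chains moved together across the arrays. Pearson's r of log2 intensity over the 6 arrays was 0.993 between FGB and FGG, 0.976 between FGA and FGG and 0.970 between FGA and FGB. Over the 10 pairs of probe sets above the filter, r ran from 0.960 to 0.997, with the lowest value between both FGA probe sets. The dim FGA probe set gave 0.383 to 0.612 with the others. These values describe 6 points that share the same arrays and scaling, and no test was made on them. Averaged over the chains, the DOX change was 1.45 ± 0.27 (SD over 3 chains) in shNTC, -1.07 ± 0.29 in shCNOT3-1 and -2.08 ± 0.11 in shCNOT3-2. The change in shCNOT3-2 minus that in shCNOT3-1 was -1.34 for FGA, -1.03 for FGG and -0.68 for FGB. With its brightest probe set, CNOT3 also had the lower intensity with DOX in shCNOT3-2. Another CNOT3 probe set above the filter changed about equally, by -2.13 in shCNOT3-1 and -2.22 in shCNOT3-2. A dim one changed by -1.40 and -2.65. A relation between CNOT3 level and the chains was not tested. The chains are products of 1 gene cluster and are not replicates of a condition.

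**Figure D2:**
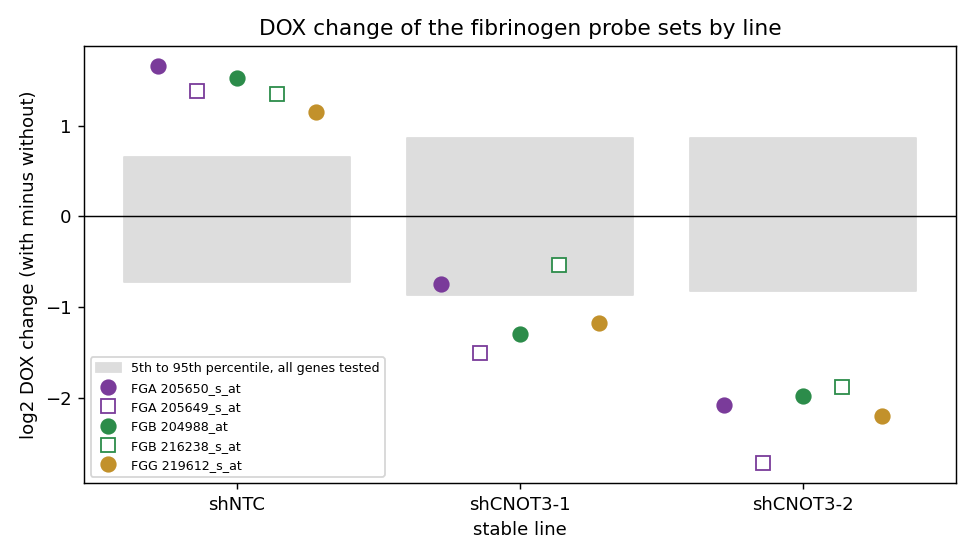
Log2 DOX change (with minus without DOX) of the 5 fibrinogen probe sets above the filter in each stable line; filled circles are the brightest probe set of a chain, open squares the other probe sets, and grey bands span the 5th to the 95th percentile of all 12630 genes tested. In shNTC all 5 points lay above the band (1.15 to 1.66) and in shCNOT3-2 all lay below it (-2.72 to -1.88), while in shCNOT3-1 the brightest FGA probe set (-0.74) and the second FGB probe set (-0.53) lay inside it.

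The chains were set beside all genes tested. In shNTC, all 3 chains were at least 2-fold higher with DOX, as were 1.82% of all genes tested, while 2.19% were at least 2-fold lower. In shCNOT3-1, FGB and FGG were at least 2-fold lower, as were 3.44% of genes, and 3.42% were at least 2-fold higher. In shCNOT3-2 all 3 chains were at least 2-fold lower, against 2.87% of genes, and 3.59% were at least 2-fold higher. The median change of all genes was -0.01, 0.05 and 0.02 in the 3 lines. A change of at least 2-fold up in shNTC and at least 2-fold down in both shCNOT3 lines was found for 2 genes of 12630 (0.0158%), FGB and FGG, and FGA missed it through its 1.67-fold change in shCNOT3-1. This count was made after the values were seen, on the values that chose the members, and nothing is read from it beyond the description. With all probe sets of a gene averaged, the 2 genes were FGG and 1 other, and with no filter on dim genes there were 61.

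By size, 44 of the 12630 genes had a higher change than FGA in shNTC, 56 than FGB and 144 than FGG. In shCNOT3-2, 40 genes had a lower change than FGA, 45 than FGB and 31 than FGG. In shCNOT3-1 the chains stood further in, with 855 genes lower than FGA, 201 lower than FGB and 269 lower than FGG. The shCNOT3 mean minus the shNTC change was -3.17 for FGB, -3.07 for FGA and -2.83 for FGG, and 6, 7 and 14 genes lay lower. Those below FGB, named after their values were seen, were EDN3 (-3.80), SLC37A1 (-3.65), TNFSF13 (-3.51), RASAL1 (-3.46), MGAT4A (-3.33) and H4C9 (-3.32).

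Of the genes around the cluster, most were too dim to read. On chromosome 4 the 4 coding genes on each side are RNF175, SFRP2, DCHS2 and PLRG1 before FGB, and LRAT, RBM46, NPY2R and MAP9 after FGG. Only PLRG1, a splicing factor next to FGB, and MAP9, a microtubule-associated protein, passed the filter. PLRG1 went from 4064 without to 3589 with DOX in shNTC, from 4044 to 4179 in shCNOT3-1 and from 3661 to 4860 in shCNOT3-2. It gave -0.18, 0.05 and 0.41 with its brightest probe set, opposite in sign to the chains, but its other probe set had a shCNOT3 mean of -0.27, the sign of the chains. MAP9 gave 0.16, -0.12 and -0.29. Adjusted p in limma was 0.593 for PLRG1 and 0.680 for MAP9.

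The genes around fibrinogen in its pathway were read from 9 lists. For these, limma tested the mean change of both shCNOT3 lines with the line as a block, over all 12630 genes. The estimate and its p-value are for the whole DOX change, not net of shNTC. The shNTC change and the difference between hairpins make up the residual, so a large shNTC change of either sign widens it. Of all genes tested, 28 passed (0.222%), 13 higher and 15 lower. At an unadjusted p under 0.05, 7.45% of genes were higher and 7.08% lower. Counting direction alone, 33.2% of genes were higher in both shCNOT3 lines, 26.9% lower in both, and 13.5% higher in shNTC and lower in both, which is the direction of the chains. These shares are the background for each list. Among the genes named below, the shCNOT3 mean had the opposite sign with at least 1 other probe set for IL6R, SOCS1, STAT3, FOXA2, NR3C1, HSPA5, S100A10, ITGB3, HPX, SERPINA1, AHSG, AMBP, FCN2 and PDE7A. Such a probe set reached the filter level for STAT3, NR3C1, HSPA5 and S100A10. For the rest, leaving PDE7A aside, it lay under that level, where signal is dim.

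Signalling by the IL6 family, which induces fibrinogen, had no shared direction. None of 18 tested genes passed, and 3 were higher and 1 lower at an unadjusted p under 0.05 in limma, against 7.45% and 7.08% of all genes. Of the 18, 5 were higher in shNTC and lower in both shCNOT3 lines, against 13.5%. The list medians were 0.28 in shNTC, -0.06 in shCNOT3-1 and -0.14 in shCNOT3-2. IL6, the inducing cytokine, went from 105 without to 51.0 with DOX in shNTC, from 69.4 to 255 in shCNOT3-1 and from 79.3 to 216 in shCNOT3-2. It was therefore lower with DOX in the control and higher in both hairpin lines, the opposite of the chains, with a mean of 1.65 ± 0.45 (SE; adjusted p = 0.155 in limma). Its receptor genes IL6ST and IL6R had the signs of the chains with their brightest probe sets. IL6ST (gp130, the shared signalling subunit) went from 8357 to 14671 in shNTC, from 7127 to 5239.9 in shCNOT3-1 and from 7740 to 5622 in shCNOT3-2, a change of 0.81, -0.44 and -0.46. IL6R, the ligand-binding receptor, gave 1.01, -0.20 and -0.60, and adjusted p was 0.603 for IL6R and 0.416 for IL6ST. LIFR, the receptor for leukemia inhibitory factor, gave 0.18, -1.96 and -1.17 (adjusted p = 0.0800), but the other LIFR probe sets were between -0.30 and 0.11 in shCNOT3-2. OSMR, the oncostatin M receptor, gave 0.51, 0.10 and 0.30, and the cytokine IL11 gave 0.79, 0.71 and 0.75. STAT3, the transcription factor that carries the signal, gave 0.49, -0.18 and 0.10, without a common direction in the hairpin lines. SOCS3, a target of STAT3 that feeds back on the receptor, gave 1.04, -0.16 and 0.16, with its other probe sets between -2.12 and 0.65 in shNTC. SOCS1, another feedback inhibitor, gave -0.56, -0.70 and -0.87.

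Transcription factors of the liver type gave no call either. None of 14 tested passed, and 2 were higher and 1 lower at an unadjusted p under 0.05 in limma, against 7.45% and 7.08% of all genes. The direction of the chains in all 3 lines was found in 4 of 14, against 13.5%. The list medians were 0.04, 0.13 and -0.13. FOXA2, a pioneer factor of liver and lung epithelium, went from 1615 without to 1852 with DOX in shNTC, from 1919.8 to 887 in shCNOT3-1 and from 1786 to 896 in shCNOT3-2. Its change was 0.20 in shNTC and -1.11 and -0.99 in the hairpin lines, which missed the threshold (adjusted p = 0.0580 in limma), and another FOXA2 probe set gave -1.30 and -0.10. CEBPB, which binds the C/EBP element and mediates IL6 responses, was on the other side, at -0.21, 0.53 and 0.29 (adjusted p = 0.222). CEBPD gave 0.51, 0.58 and -0.62 with its brightest probe set. The other, under the filter level at a mean log2 intensity of 5.8, gave 1.74, -1.36 and -1.60. The direction of CEBPD in shCNOT3-1 thus depended on the probe set. USF1 gave -0.73, 1.14 and 0.72, and NR5A2, a nuclear receptor of liver, gave -0.24, 0.37 and 0.32. NR3C1, the glucocorticoid receptor, gave 0.03, -0.15 and -0.34 (adjusted p = 0.496).

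Genes of assembly and secretion in the endoplasmic reticulum, where the hexamer is built, leaned to lower values in the hairpin lines by count. No single gene of the list passed the adjusted threshold. Of 26 tested, 20 were lower in both, against 26.9% of all genes, and 14 were also higher in shNTC, against 13.5%. At an unadjusted p under 0.05 in limma, 9 were lower and none higher, against 7.08% and 7.45% of all genes. The medians were small, at 0.06, -0.20 and -0.24. STT3B, a catalytic subunit of the enzyme that attaches N-glycans, went from 9168 to 10195 in shNTC, from 10242 to 6051 in shCNOT3-1 and from 10974 to 5892 in shCNOT3-2, with a mean change of -0.83 ± 0.14 (SE; adjusted p = 0.0534). STT3B passed with arrays centred on the median, without shNTC and with no block for the line. P4HB, a protein disulfide isomerase, gave 0.00, -0.60 and -0.59 (adjusted p = 0.0911), and its other probe sets gave -0.59 to -0.48 in the hairpin lines. ERO1B, an oxidase that recharges the isomerases, gave 1.10, -0.53 and -0.46, and HSP90B1, a chaperone, gave 0.29, -0.56 and -0.41. HSPA5 (BiP), the chaperone that binds unfolded chains, gave 0.36, -0.09 and 0.20. LMAN1, a cargo receptor for glycoproteins, gave 0.03, -0.38 and -0.10, and another LMAN1 probe set above the filter gave -0.04, -1.26 and -0.98.

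Of the genes that make or restrain thrombin, the enzyme that cuts fibrinogen, APOH alone passed. APOH encodes beta-2-glycoprotein I, a plasma protein that binds phospholipid, and went from 2533 without to 3158 with DOX in shNTC, from 1634 to 749 in shCNOT3-1 and from 2113 to 693 in shCNOT3-2. APOH fell with DOX in the shCNOT3 lines, by 1.37 in log2 terms (SE 0.21; limma adjusted p = 0.0431, 0.0119 to 0.260 over the alternatives), and without shCNOT3-2 the adjusted p was 0.120. The other APOH probe set, under the filter level at a mean log2 intensity of 5.09, gave 2.60, -2.80 and -0.87. Among 15 tested genes, 4 were lower and 2 higher at an unadjusted p under 0.05 in limma, against 7.08% and 7.45% of all genes. The direction of the chains in all 3 lines was found in 6 of 15, against 13.5%. The medians were 0.32, -0.23 and -0.01. F2, prothrombin, went from 114 to 185 in shNTC, from 81.2 to 32.0 in shCNOT3-1 and from 109.9 to 63.8 in shCNOT3-2, a change of 0.70, -1.32 and -0.77 (adjusted p = 0.341). TFPI, the inhibitor of the tissue factor pathway, gave 0.66, -0.68 and -0.94 (adjusted p = 0.164). F3, tissue factor, which starts coagulation, went the other way, from 167 to 98.5 in shNTC, from 102 to 298 in shCNOT3-1 and from 160.3 to 314 in shCNOT3-2, or -0.75, 1.54 and 0.97 (adjusted p = 0.168).

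In the list of crosslinking and fibrinolysis, the removal of fibrin, 1 plasminogen activator passed. PLAU, urokinase, went from 2002 without to 3295 with DOX in shNTC, from 2339 to 6867 in shCNOT3-1 and from 1904 to 6474 in shCNOT3-2. PLAU rose with DOX in the shCNOT3 lines, by 1.66 in log2 terms (SE 0.24; limma adjusted p = 0.0264, 0.00861 to 0.260 over the alternatives). This is the whole DOX change, not net of the 0.72 in shNTC, and the adjusted p was 0.0644 without shCNOT3-1 and 0.0689 without shCNOT3-2. The other PLAU probe set gave 0.84, 1.47 and 1.40. PLAT, the tissue-type activator, gave 0.31, 1.30 and 1.19 (adjusted p = 0.153), at intensities of 89.5 to 255. Of 8 tested genes, 1 passed and 3 were higher at an unadjusted p under 0.05 in limma, against 7.45% of all genes. In both shCNOT3 lines 5 were higher and none lower, against 33.2% and 26.9%, and none had the direction of the chains, against 13.5%. PLAUR, the urokinase receptor, gave 0.23, 0.36 and 0.44, and S100A10, which with annexin A2 binds plasminogen at the cell surface, 0.04, 0.10 and 0.53.

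Receptors for fibrinogen showed no shared direction. Of 7 tested, none passed or reached an unadjusted p under 0.05 in limma, against 7.45% of all genes higher and 7.08% lower. In both hairpin lines 2 were higher and 1 lower, against 33.2% and 26.9%. The direction of the chains was found in 1, against 13.5%. The medians were 0.18, -0.20 and 0.02. ITGAV, the integrin αV subunit, went from 6208 to 9958 in shNTC, from 6772 to 4922 in shCNOT3-1 and from 7469 to 5376 in shCNOT3-2, the 1 receptor with the direction of the chains (0.68, -0.46 and -0.47; adjusted p = 0.354). Its partner ITGB3 gave 0.38, 1.27 and 0.74 from intensities of 34.9 to 115. ITGA5, a fibronectin receptor subunit that also binds fibrinogen, gave 0.45, 0.02 and 0.31.

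**Figure D3:**
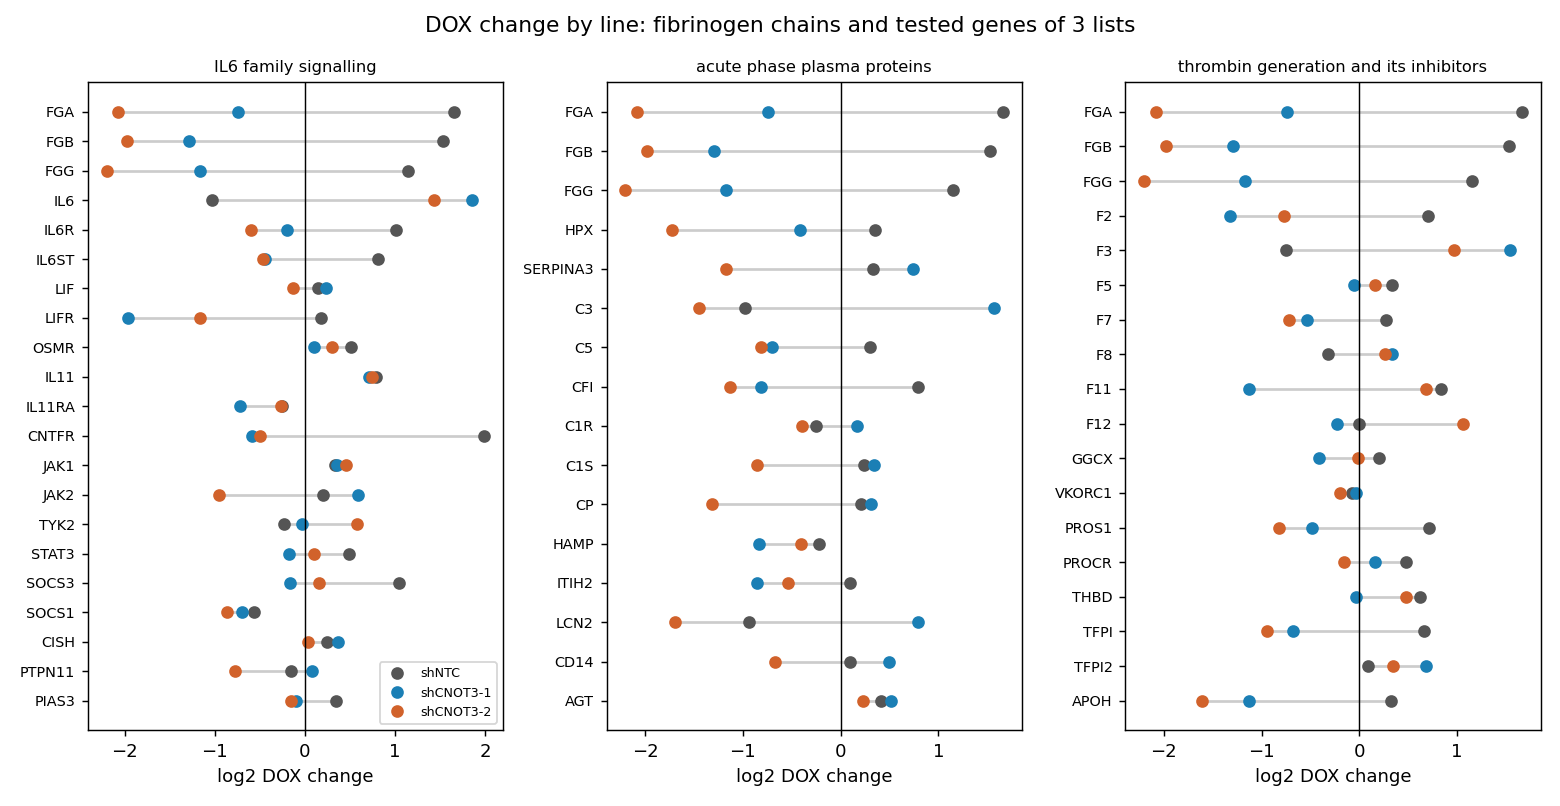
Log2 DOX change of the fibrinogen chains and of every tested gene of 3 lists; each dot is 1 stable line (grey shNTC, blue shCNOT3-1, orange shCNOT3-2), and the bar spans the 3 lines. The chains had the shNTC dot at the right (1.15 to 1.66) and both shCNOT3 dots left of 0, while IL6 (-1.03 in shNTC, 1.86 and 1.43) and F3 (-0.75 in shNTC, 1.54 and 0.97) had the reverse order.

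Genes of other acute phase proteins of plasma gave no call. Of 13 tested, none passed, and 2 were lower and none higher at an unadjusted p under 0.05 in limma, against 7.08% and 7.45% of all genes. In both shCNOT3 lines 5 were lower, against 26.9%, and 4 had the direction of the chains, against 13.5%. The medians were 0.21 in shNTC, 0.31 in shCNOT3-1 and -0.86 in shCNOT3-2, so the list median lay above 0 with one hairpin and below it with the other. C3, the central complement component, went from 1192 to 603 in shNTC, from 882 to 2621 in shCNOT3-1 and from 1229 to 449 in shCNOT3-2, with changes of -0.98, 1.57 and -1.45. CP, ceruloplasmin, gave 0.21, 0.31 and -1.32, LCN2, lipocalin 2, gave -0.94, 0.79 and -1.69, and SERPINA3, antichymotrypsin, gave 0.33, 0.74 and -1.17, where the chains were lower with both hairpins. C3, CP and LCN2 were chosen after their values were seen. With the signs of the chains, CFI, complement factor I, gave 0.79, -0.81 and -1.13 (adjusted p = 0.378), and C5 gave 0.30, -0.70 and -0.81 (adjusted p = 0.153). ITIH2, an inhibitor chain bound to hyaluronan, gave 0.10, -0.85 and -0.54. HPX, hemopexin, gave 0.35, -0.42 and -1.72 at intensities of 31.4 to 157. The other HPX probe set, under the filter level at a mean log2 intensity of 4.7, was higher in both hairpin lines (0.85 and 2.80). SERPINA1 was too dim to test.

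Of the plasma proteins of the liver outside the acute phase list, 11 were tested and 7 were too dim. None passed, and 2 were lower and none higher at an unadjusted p under 0.05 in limma, against 7.08% and 7.45% of all genes. In both shCNOT3 lines 6 were lower, against 26.9%, and 3 had the direction of the chains, against 13.5%. The medians were 0.00, -0.10 and -0.49. SERPINA6, the corticosteroid-binding globulin, gave 0.81, -3.06 and -0.49, from 118 down to 13.3 in shCNOT3-1. TTR, transthyretin, gave 0.00, -0.44 and -1.68, AMBP -1.47, -2.56 and -0.34, and AHSG, the single hepatocyte marker above the filter, was higher with DOX in every line (0.99, 0.40 and 0.87), unlike the chains. In the proteins that share the fibrinogen-like domain, none of 7 tested passed. At an unadjusted p under 0.05 in limma 1 was lower, against 7.08% of all genes. The direction of the chains was found in 1, against 13.5%. The medians were 0.43, -0.25 and 0.16. ANGPT1, angiopoietin 1, was the 1 gene of this list with the direction of the chains (1.05, -0.91 and -0.56). FGL1, fibrinogen-like 1, which stands in both lists, went from 2105 to 2077 in shNTC, from 1696 to 1437 in shCNOT3-1 and from 2191 to 1260.3 in shCNOT3-2 (-0.02, -0.24 and -0.80). FCN2, ficolin 2, gave 0.35, 0.18 and 0.09.

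Across 1732 tested genes with an SD of at least 0.5 over the arrays, the 8 most like the mean of the chains were CFI (r = 0.995), LINC00261 (0.991), GXYLT1 (0.991), PDE7A (0.986), INSL4 (0.984), SH3PXD2A (0.983), PLEKHH2 (0.981) and C4BPA (0.981). These r are over 6 arrays and were picked as the highest of many, so they carry no test. CFI went from 109 to 191 in shNTC, from 95.2 to 53.8 in shCNOT3-1 and from 86.8 to 39.2 in shCNOT3-2. C4BPA, a regulator of complement in plasma, read 239.9 and 357, 157 and 89.4, and 161 and 44.4, and LINC00261, a long non-coding RNA, read 207 and 387, 131 and 67.5, and 169.9 and 41.8. All 3 kept the order of the chains in being highest in shNTC with DOX and lowest in shCNOT3-2 with DOX. GXYLT1, a glycosyltransferase, ranged from 301 to 1915, and INSL4, an insulin-like peptide, from 2498 to 9025. PDE7A, a phosphodiesterase, ranged from 562 to 1705, SH3PXD2A, an adaptor of invadopodia, from 218 to 865, and PLEKHH2 from 115 to 558. Other probe sets of PDE7A differed, up to a mean change of 1.71 in the shCNOT3 lines.

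**Figure D4:**
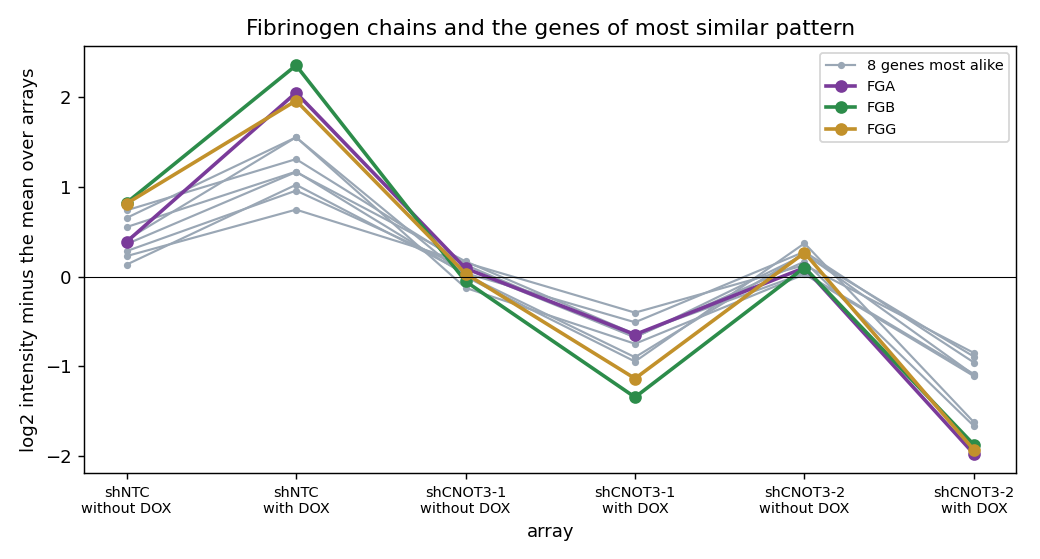
Log2 intensity minus its mean over the 6 arrays for FGA, FGB and FGG and for the 8 genes most like their mean (grey); each point is 1 array, and lines only join the points of a gene. The chains and the 8 genes were highest in shNTC with DOX and lowest in shCNOT3-2 with DOX. Each chain spanned a wider range than any of the 8 genes.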

How the data were processed

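The authors deposited probe set intensity values on a linear scale for 6 arrays, which per the submitters' processing notes came from MAS5, with settings not given in the sources used here. Every array had a trimmed mean (2% off each end) of 500.1, a median of 64.9 to 72.8 and a lowest value of 1. Precision is limited by the number of arrays. The annotation gave 41091 probe sets 1 gene and 1801 several; 41037 symbols were updated through RefSeq. Members and lists were chosen with earlier results of these data known.

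Values were taken as log2(intensity + 1), a gene was its brightest 1-gene probe set, and genes with a mean log2 under 5.96, the median of all probe sets, were left out, which kept 12630. limma 3.58.1 in R 4.3.3 (lmFit and eBayes with an intensity trend, 2-sided, Benjamini-Hochberg, threshold 0.05) fitted the line as a block and a knockdown term set in the shCNOT3 arrays with DOX. The labels pair the 2 arrays of a line, and deviations of the shCNOT3 lines from their group means correlated at 0.0595 between the arrays without and with DOX. The labels name no separate cultures, and the p-values therefore reflect the spread among these arrays alone, which may be technical. The procedure was tested on simulated data. From each list the genes that passed and up to 4 with the same sign in both hairpins, by the smaller change, were named, besides a preset group of pathway genes. Alternatives covered the added constant, scaling, probe set, filter, variance trend, block and each line left out. Promoters came from RefSeq on GRCh38.p14. Figures used Python 3.11.15 and matplotlib 3.10.9.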

Additional observations from a re-analysis of the deposited data

Results flagged for a closer look

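Each of the following had a DOX change of one sign in shNTC and of the other sign in both shCNOT3 lines. That difference was not tested, and 1 array stood behind each state. The values are the shCNOT3 mean minus the shNTC change on the log2 scale. For the chains they were -3.07 for FGA, -3.17 for FGB and -2.83 for FGG. The signal genes gave 2.68 for IL6, -1.41 for IL6R, -1.26 for IL6ST and -1.74 for LIFR. Among transcription factors FOXA2 gave -1.25, NR3C1 -0.28, USF1 1.66, NR5A2 0.59 and CEBPB 0.62. In the endoplasmic reticulum STT3B gave -0.98, P4HB -0.60, ERO1B -1.59, HSP90B1 -0.77 and LMAN1 -0.27. In coagulation APOH gave -1.68, F2 -1.74, TFPI -1.47 and F3 2.00, and the receptor ITGAV gave -1.15. Of the plasma and fibrinogen-domain proteins, CFI gave -1.76, C5 -1.05, ITIH2 -0.80, HPX -1.42, SERPINA6 -2.58, TTR -1.07 and ANGPT1 -1.79. The shNTC changes of P4HB and TTR were 0.00 to 2 decimals and those of NR3C1 and LMAN1 0.03, so their sign in shNTC carries little. For IL6, F2, CFI, HPX, SERPINA6, TTR and ANGPT1, at least 1 array lay under the filter level.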

How the results depend on the processing

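For the chains, the shNTC change and the shCNOT3 mean kept their sign under every alternative run, and with the third, dim FGA probe set, chosen after seeing the data, the FGA mean was -0.14. Leaving out a hairpin gives the change of the other alone, -2.08 to -0.74 for FGA, -1.98 to -1.29 for FGB and -2.20 to -1.17 for FGG. The 28 genes that passed in limma became 59 with arrays centred on the median, 6 with the mean of probe sets, 3 with no filter on dim genes, 191 with no replicate block and 0 when the variance prior had no intensity trend, where 1547 genes had an unadjusted p under 0.05; leaving out 1 line gave 39 to 62 (without shCNOT3-1 39, without shCNOT3-2 62, without shNTC 57). With no filter on dim genes, 2-fold counts were 1770 higher and 1771 lower in shNTC (from 230 and 277), 2030 and 1825 in shCNOT3-1 (from 432 and 434), and 2240 and 1664 in shCNOT3-2 (from 454 and 362), and the opposite pattern, a count added after seeing the data, from 2 to 61 genes. The causes of these shifts were not tested. With no filter, the genes otherwise left out as dim were among those counted. PLAU and APOH missed the threshold with no filter, with the mean of probe sets, without the trend and without shCNOT3-2, PLAU also without shCNOT3-1 and APOH also with quantile normalization. STT3B, CNOT3, FOXA2, IL6, LIFR and P4HB, which missed the threshold, passed with no replicate block, and STT3B also with median centring and without shNTC.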
